A study of Mus musculus with 25 samples.

Results

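Sphingolipid and galactolipid synthesis is represented here by 9 named genes out of the 23351 in the deposited expression table: Sptlc1, Sptlc2, Degs1, Ugt8a, Gal3st1, Fa2h, Ugcg, Galc and Smpd1. They were chosen by symbol, and all 9 were found. The table holds RNA sequencing of mouse oligodendrocyte precursor cells, the dividing glial cells that give rise to myelin-forming oligodendrocytes, cut from brain by laser capture microdissection, in which chosen areas of a section are collected under a microscope. Of the 25 libraries, 8 came from mice at Day 5 of white matter stroke, an ischaemic injury of the myelinated fibre tracts, 7 came from Day 15 of white matter stroke, and 10 were labelled Control. The labels name no strain, sex, genotype or animal age, do not say whether controls had a sham operation, and link no library to an animal; if several libraries of a group come from 1 mouse, the p-values below are too small.

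Ceramide is built from serine and a fatty acyl chain. Serine palmitoyltransferase, whose core subunits are Sptlc1 and Sptlc2, makes the first committed step, and Degs1, a desaturase, makes the last step to ceramide. Oligodendrocytes turn much of their ceramide into galactosylceramide, by the galactosyltransferase Ugt8a, and then into sulfatide, by the sulfotransferase Gal3st1. Both lipids are known as major lipids of myelin, and many of them carry a 2-hydroxy fatty acid made by the hydroxylase Fa2h. Ugcg is the glucosyltransferase that leads ceramide to gangliosides instead. Galc breaks galactosylceramide down in the lysosome, where Smpd1, the acid sphingomyelinase, frees ceramide from sphingomyelin.

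RefSeq promoter sequences (build GRCm38.p6) were matched for 8 of the 9 genes at 10 start sites, and Fa2h had no entry. Sptlc2 and Ugt8a are shown because Sptlc2 is the only member called below and Ugt8a is the member with the highest median in every group. The Sptlc2 stretch lies at chr12:87388356-87388605 and that of Ugt8a at chr3:125938683-125938902, both on the minus strand. Each ends at the base before the outermost annotated end of its RefSeq gene; for Ugt8a the start used in the promoter table lies further inside the gene, so only 220 of its 250 upstream bases are printed, and the full 250 hold 3 GC boxes. Capitals mark a GC box (GGGCGG, or CCGCCC on the other strand) or a CCAAT box (CCAAT, or ATTGG on the other strand), each running 5′ to 3′ on the gene's strand.
Sptlc2: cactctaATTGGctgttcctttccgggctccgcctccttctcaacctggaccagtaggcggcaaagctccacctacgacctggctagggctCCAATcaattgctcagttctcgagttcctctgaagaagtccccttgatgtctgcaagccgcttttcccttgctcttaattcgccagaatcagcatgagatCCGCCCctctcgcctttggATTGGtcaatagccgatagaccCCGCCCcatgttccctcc
Ugt8a: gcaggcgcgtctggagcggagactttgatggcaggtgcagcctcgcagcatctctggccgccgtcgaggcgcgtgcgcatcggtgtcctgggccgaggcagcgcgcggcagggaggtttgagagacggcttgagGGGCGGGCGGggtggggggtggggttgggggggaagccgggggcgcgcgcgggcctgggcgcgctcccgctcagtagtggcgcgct
The Sptlc2 sequence holds 2 GC boxes, 3 CCAAT boxes and 11 CpG dinucleotides in 250 bases. That of Ugt8a holds 2 overlapping GC boxes, no CCAAT box and 28 CpG dinucleotides in 220 bases. Over the 250 bases upstream of all 32851 RefSeq starts, 32.7% held a GC box and 33.8% a CCAAT box, and the median window had 6 CpG dinucleotides. Among the 8 matched members, 6 had a GC box and 4 a CCAAT box at one of their starts or more. These matches describe the letters and name no bound factor.

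Values are RPKM as the authors deposited them, reads scaled to gene length and library, and their read depth is unknown. The number of genes reaching 1 RPKM was 4217 ± 1495 at Day 5 (SD, n = 8), 2980 ± 1248 at Day 15 (SD, n = 7) and 2467 ± 890 in Control (SD, n = 10). The number of the 9 members at that level ran from 3 to 8 (median 6) at Day 5, from 0 to 7 (median 3) at Day 15 and from 2 to 6 (median 4) in Control. Of the 8 precursor markers checked, 6 had a group median of at least 1 RPKM at Day 5, 4 at Day 15 and 3 in Control, where the median of Cspg4 was 0.00536 RPKM. These 8 summed to 15.5 to 103 RPKM at Day 5 (median 26.5), 9.69 to 50.7 at Day 15 (median 25.6) and 5.08 to 106 in Control (median 16.8). The 9 myelin markers summed to 81.7 to 787 RPKM at Day 5, 41.2 to 546 at Day 15 and 119 to 1277 in Control. Macrophage markers (8 listed) summed to 127 to 2598 RPKM at Day 5, 47.7 to 565 at Day 15 and 0.712 to 120 in Control, and the 12 microglia markers to 80.7 to 665, 44.5 to 1648 and 9.77 to 73.0 RPKM in the same order. None of these markers was at 0 in all 25 libraries. In such bulk samples, fewer cells of a type and less RNA per cell cannot be told apart.

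Ugt8a had the highest median of the members in all 3 groups on the RPKM scale, at 5.25 RPKM at Day 5, 2.72 at Day 15 and 9.54 in Control. At Day 5 it was followed by Degs1 (median 3.08 RPKM), Fa2h (2.12), Sptlc2 (1.64), Galc (1.39), Ugcg (1.28), Smpd1 (1.21), Sptlc1 (0.414) and Gal3st1 (0.0800). At Day 15 the order was Fa2h (1.01), Galc (0.551), Degs1 (0.482), Sptlc2 (0.449), Ugcg (0.380), Smpd1 (0.158), Sptlc1 (0.0909) and Gal3st1 (0.0197). In Control it was Fa2h (5.60), Degs1 (1.47), Gal3st1 (0.924), Ugcg (0.602), Smpd1 (0.380), Sptlc2 (0.303), Galc (0.275) and Sptlc1 (0.163). Within each group the ranges of genes next to each other in the order overlapped.

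**Figure D1:**
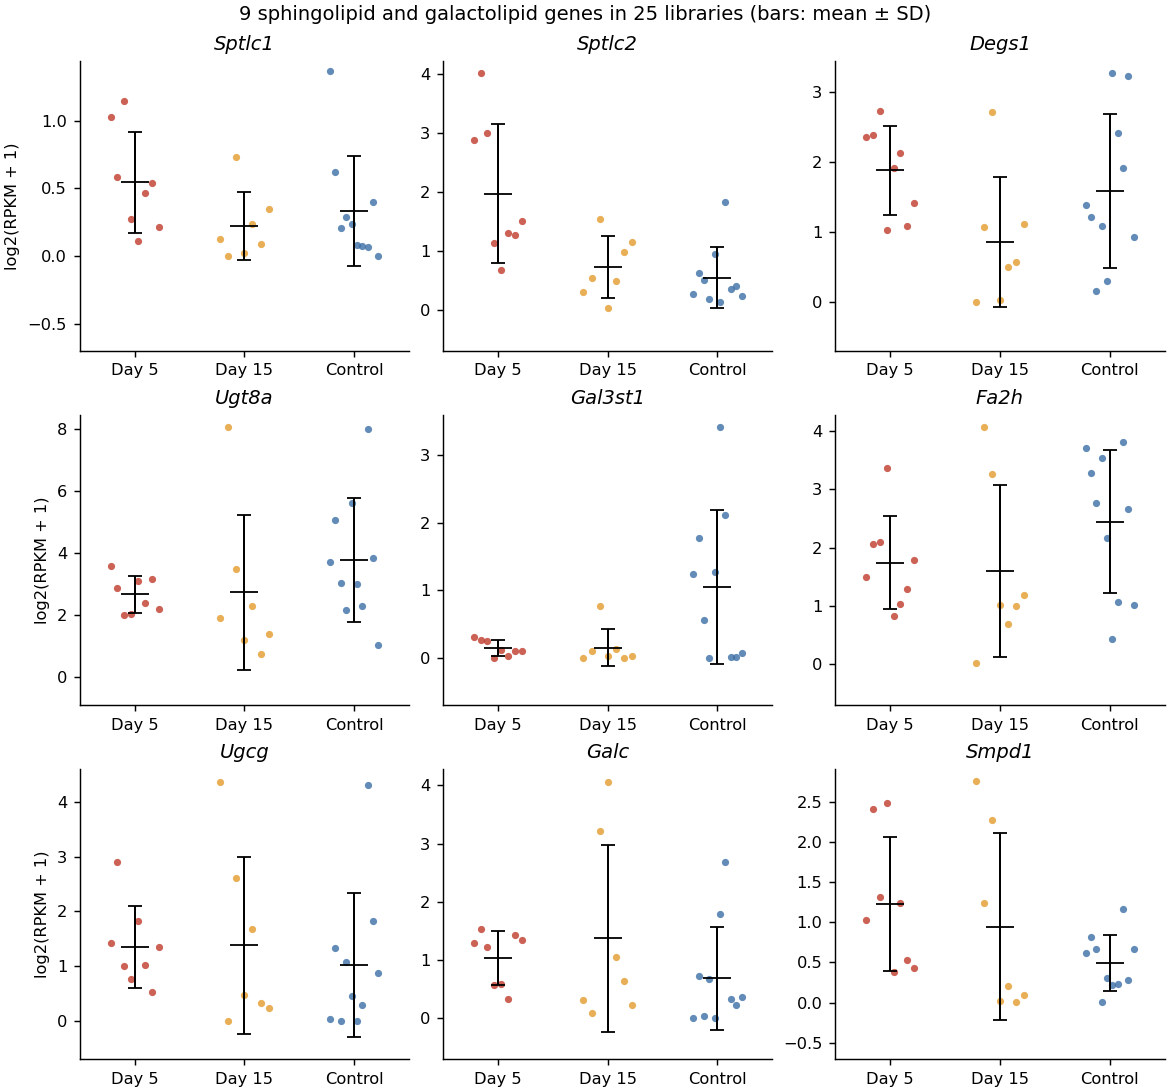
Expression of the 9 genes in each of the 25 libraries, as log2(RPKM + 1) on the vertical axis, with Day 5, Day 15 and Control from left to right, 1 point per library and the group mean ± SD. Sptlc2 stands above the Control median in all 8 Day 5 libraries, and Gal3st1 is under 1 RPKM in all 15 stroke libraries.

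Changes were tested with limma on log2(RPKM + 1), with Benjamini-Hochberg adjustment over the 4319 genes that reached 1 RPKM in at least 7 libraries. Of the 9 members, 7 passed that filter. Sptlc1, at 1 RPKM or more in 3 libraries, and Gal3st1, in 5, did not. Sptlc2 reached 1 RPKM in 7 Day 5, 2 Day 15 and 1 Control libraries, so it passed mainly through the group where it was higher. Without the filter its Day 5 change against Control had a limma adjusted p = 0.129. At Day 5 against Control, 1 of the 7 was called, Sptlc2, which was higher (adjusted p under 0.05), whereas 6.04% of all tested genes were called and 6.02% were called higher. At Day 15 against Control limma called 0 of the 7, with 0.0926% of all tested genes called, and 0 of the 7 had an unadjusted p under 0.05. At Day 15 against Day 5 it called 0 of the 7 and 0% of all genes, although 633 genes, Sptlc2 among them, had an unadjusted p under 0.05. The median log2 change of the 7 members was 0.33 at Day 5 against Control, 0.17 at Day 15 against Control and -0.14 at Day 15 against Day 5, where all tested genes had medians of 0.61, 0.17 and -0.44. Both comparisons with Control share the same 10 control libraries.

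Of the core subunits of the first enzyme, only Sptlc2 passed the filter. Sptlc2 RNA was higher at Day 5, and Sptlc1, the partner subunit, stayed near the lower limit of the data. The Sptlc1 median was also higher at Day 5 than in Control, at 0.414 against 0.163 RPKM, so a difference between the subunits is not shown. Sptlc2 had a lowest, median and highest value of 0.598, 1.64 and 15.2 RPKM at Day 5, 0.0145, 0.449 and 1.91 RPKM at Day 15, and 0.0878, 0.303 and 2.57 RPKM in Control. All 8 Day 5 libraries lay above the Control median and 3 of them, replicates 1, 3 and 4, at 6.35, 15.2 and 7.00 RPKM, lay above every control. The groups overlapped. Means were 4.38 ± 5.03 RPKM at Day 5 (SD, n = 8), 0.746 ± 0.663 at Day 15 (SD, n = 7) and 0.563 ± 0.746 in Control (SD, n = 10). Without replicate 3 the Day 5 mean was 2.83 RPKM.

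Sptlc2 rose by 1.43 on the log2(RPKM + 1) scale at Day 5 against Control (SE 0.44, limma adjusted p = 0.0427). At Day 15 it was 0.17 above Control (SE 0.46, limma adjusted p = 0.960), and Day 15 stood at -1.25 against Day 5 (SE 0.48, limma adjusted p = 0.249). The Day 5 call was lost when any of 11 single libraries was left out (adjusted p from 0.0538 to 0.108), namely Day 5 replicates 1, 3, 4 and 10 and Control replicates 1, 3, 4, 6, 8, 9 and 10. It was also lost under quantile normalization, where the change was 0.68 (adjusted p = 0.440) and the median of all genes was -0.02. Among libraries numbered 1 to 6 the Sptlc2 change was 2.32 (adjusted p = 0.0869), and among those numbered 7 to 10 it was 0.48 (adjusted p = 0.602).

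Sptlc1 had 0.0822, 0.414 and 1.21 RPKM as lowest, median and highest at Day 5, 0.00179, 0.0909 and 0.656 at Day 15, and 0.00243, 0.163 and 1.58 in Control. The groups overlapped, although 3 of 7 Day 15 libraries lay below every Day 5 library and 2 of 8 Day 5 libraries above every Day 15 library. Without the filter on low values its difference at Day 5 against Control was 0.21 (limma adjusted p = 0.611). The within-library log2 ratio of Sptlc2 over Sptlc1 was 1.43 ± 0.95 at Day 5 (SD, n = 8), 0.50 ± 0.36 at Day 15 (SD, n = 7) and 0.21 ± 0.72 in Control (SD, n = 10), with 1 added to both RPKM values. Since Sptlc1 stayed at or below 1.58 RPKM, this ratio mostly follows Sptlc2 and is not a separate result. Day 5 exceeded Control by 1.22, with a two-sided exact permutation p = 0.00503 and an adjusted p = 0.0452 over 9 ratio tests. That call was lost in all 7 alternatives tried for ratios and without any of 12 single libraries (adjusted p from 0.0509 to 0.102), which were Day 5 replicates 1, 3, 4, 6, 8 and 10 and Control replicates 1, 2, 3, 6, 8 and 9. Against Day 5, the Day 15 ratio differed by -0.93 (exact permutation p = 0.0131, adjusted p = 0.0587).

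Sptlc2 moved with macrophage marker RNA and, as deposited, with the markers of some other cell types. Across the 25 libraries, which differ in group and in the number of genes they hold, Spearman's rho of Sptlc2 with the mean macrophage marker level was 0.64 as deposited and 0.52 after quantile normalization. With the precursor markers it was 0.51 as deposited and 0.03 after quantile normalization, and with the myelin markers 0.01 and -0.22. In the same order it was 0.46 and 0.17 with microglia, 0.49 and -0.05 with endothelium, 0.18 and -0.12 with astrocyte, and -0.35 and -0.43 with neuron markers. Smpd1 had a rho of 0.54 and 0.08 with the macrophage markers, and Sptlc1 0.50 as deposited. The other members lay at 0.32 or lower as deposited. After quantile normalization the tested ones of these ran from -0.44 (Ugt8a and Fa2h) to -0.04 (Galc). Medians of the summed macrophage markers were 813 RPKM at Day 5, 82.6 at Day 15 and 13.1 in Control. Cd14 was at 0 in 9 of the 25 libraries. The part of these cells in the Sptlc2 values was not tested.

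**Figure D2:**
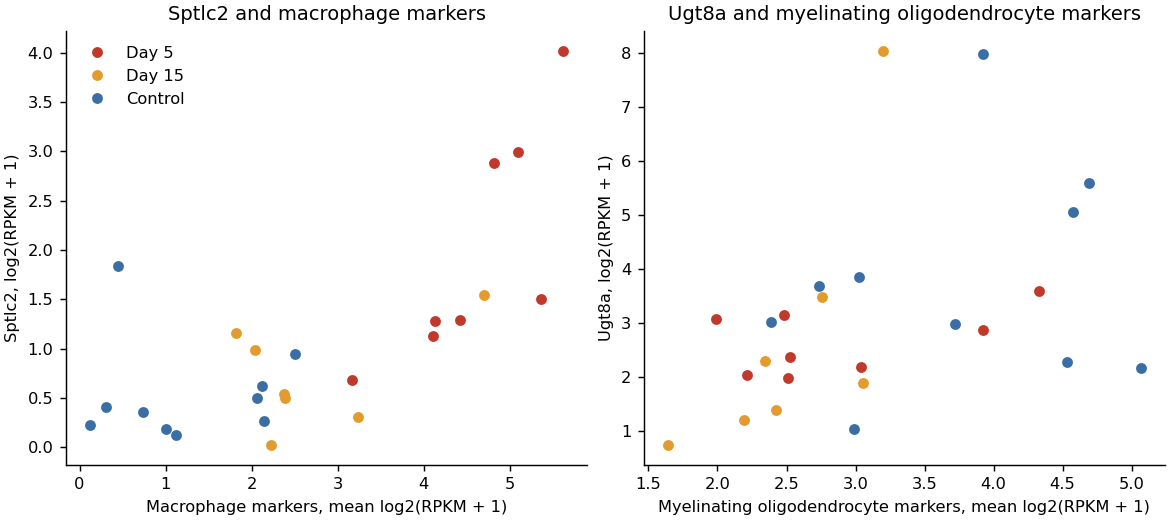
Sptlc2 against the macrophage markers and Ugt8a against the myelin markers, 1 point per library, with log2(RPKM + 1) on the vertical axis and the mean log2(RPKM + 1) of the marker list on the horizontal axis. Spearman's rho over 25 libraries is 0.64 for Sptlc2 with the macrophage markers and 0.45 for Ugt8a with the myelin markers.

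Degs1, the desaturase that completes ceramide, had 1.04, 3.08 and 5.65 RPKM as lowest, median and highest at Day 5, 0, 0.482 and 5.58 at Day 15, and 0.112, 1.47 and 8.69 in Control. Day 5 libraries lay inside the range of the controls, 2 Day 15 libraries lay below every control, and 2 controls lay above every stroke library. The log2 change was 0.29 at Day 5 (limma adjusted p = 0.740), and it turned to -0.46 after quantile normalization. Against Control it was -0.73 at Day 15 (95% interval from -1.80 to 0.34, limma adjusted p = 0.738), and Day 15 stood at -1.03 against Day 5 (95% interval from -2.15 to 0.10, adjusted p = 0.383).

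**Figure D3:**
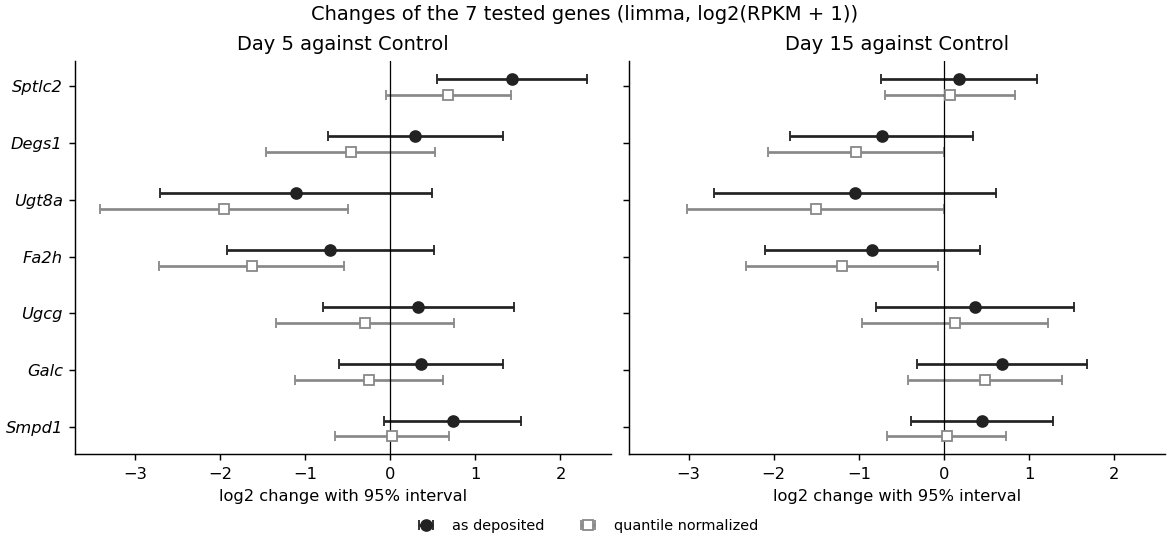
Log2 change of the 7 tested members at Day 5 against Control and Day 15 against Control with 95% intervals, for the values as deposited and after quantile normalization. Among the values as deposited at Day 5, the interval of Sptlc2, from 0.54 to 2.31, lies above 0 and those of the other 6 genes include 0.

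The galactolipid branch had lower medians in both stroke groups for all 3 of its enzymes, but no change of Ugt8a or Fa2h passed the test and Gal3st1 was under the filter. At Day 15 this was not particular to the branch: Sptlc1, Degs1, Ugcg and Smpd1 also had lower medians than in Control, while Sptlc2 and Galc had higher ones. Ugt8a, the galactosyltransferase, had 2.97, 5.25 and 11.0 RPKM as lowest, median and highest at Day 5, 0.671, 2.72 and 263 at Day 15, and 1.04, 9.54 and 252 in Control. Of the 10 controls, 5 lay above every Day 5 library, while 1 of 8 Day 5 and 2 of 7 Day 15 libraries lay above the Control median. A single library in each of 2 groups carried the mean: Day 15 averaged 40.5 ± 98.1 RPKM (SD, n = 7) and 3.41 without replicate 3, and Control averaged 37.9 ± 76.5 RPKM (SD, n = 10) and 14.1 without replicate 8. The Day 5 mean was 5.81 ± 2.86 RPKM (SD, n = 8).

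The Ugt8a change was -1.11 at Day 5 against Control (95% interval from -2.71 to 0.49, limma adjusted p = 0.372) and -1.04 at Day 15 against Control (95% interval from -2.71 to 0.62, adjusted p = 0.758). After quantile normalization these changes were -1.96 (adjusted p = 0.226) and -1.51 (adjusted p = 0.473). Day 15 differed from Day 5 by 0.06 (adjusted p = 0.981), and by -0.82 without Day 15 replicate 3. Spearman's rho of Ugt8a with the myelin markers over 25 libraries was 0.45 as deposited and 0.49 after quantile normalization. In the same order it was 0.48 and 0.01 with the precursor markers and 0.34 and 0.35 with the neuron markers. With the remaining marker lists it was 0.17 or lower as deposited. After quantile normalization it was -0.44 with macrophage, -0.36 with microglia, -0.17 with astrocyte and 0.02 with endothelium markers. The myelin markers summed to medians of 153 RPKM at Day 5, 155 at Day 15 and 593 in Control, and their part in the Ugt8a values was not tested.

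Gal3st1, which adds the sulfate of sulfatide, was detected at 1 RPKM or more in 5 of the 10 controls and in 0 of the 15 stroke libraries. Its lowest, median and highest values were 0, 0.0800 and 0.239 RPKM at Day 5, 0, 0.0197 and 0.702 at Day 15, and 0, 0.924 and 9.70 in Control. Replicates 1, 2, 5, 6 and 7 of Control held 1.38, 2.41, 1.41, 9.70 and 3.35 RPKM, and replicate 3 held 0.472. The other 4 controls, at 0 to 0.0506 RPKM, were as low as the stroke libraries. They include replicate 8, which had the highest Ugt8a value of the controls and 0.00981 RPKM of Gal3st1.

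Thus 6 of 10 controls lay above every Day 5 library for Gal3st1 and 5 above every Day 15 library. Fitted without the filter, the Gal3st1 difference was -0.90 at Day 5 against Control (limma adjusted p = 0.266) and -0.90 at Day 15 against Control (adjusted p = 0.942). A value of 0 in these amplified libraries means that the gene is listed at 0, and the depth needed to tell it from a low level is unknown.

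Fa2h, the fatty acid 2-hydroxylase, had 0.765, 2.12 and 9.29 RPKM as lowest, median and highest at Day 5, 0.00930, 1.01 and 15.8 at Day 15, and 0.353, 5.60 and 13.1 in Control. Of the controls, 3 lay above every Day 5 library, and 1 of 8 Day 5 and 2 of 7 Day 15 libraries lay above the Control median. Changes against Control were -0.71 at Day 5 (95% interval from -1.92 to 0.51, limma adjusted p = 0.466) and -0.84 at Day 15 (95% interval from -2.11 to 0.42, adjusted p = 0.742). After quantile normalization the Fa2h changes were -1.63 (adjusted p = 0.163) and -1.20 (adjusted p = 0.428). Among the 21 pairs of tested members, Ugt8a and Fa2h had the highest Spearman's rho after quantile normalization, 0.50 over 25 libraries, and Sptlc2 and Ugt8a the lowest, -0.42. The median over the 21 pairs was 0.06.

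Ugcg, which leads ceramide to glucosylceramide, had 0.434, 1.28 and 6.50 RPKM as lowest, median and highest at Day 5, 0.00180, 0.380 and 19.6 at Day 15, and 0, 0.602 and 18.9 in Control. The highest values stood in Day 15 replicate 2 and Control replicate 8, and 7 of 8 Day 5 libraries lay above the Control median. Its change was 0.33 at Day 5 against Control (limma adjusted p = 0.731) and 0.36 at Day 15 against Control (adjusted p = 0.918). The sign at Day 5 depended on the scaling, with -0.30 after quantile normalization.

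The breakdown enzymes were low in all groups. Galc, the galactosylceramidase, had 0.261, 1.39 and 1.89 RPKM as lowest, median and highest at Day 5, 0.0698, 0.551 and 15.7 at Day 15, and 0.000926, 0.275 and 5.42 in Control. Day 5 libraries lay inside the control range, and 2 Day 15 libraries, replicates 5 and 6 at 8.30 and 15.7 RPKM, lay above every control. The changes of Galc against Control were 0.36 at Day 5 (limma adjusted p = 0.659), which became -0.25 after quantile normalization, and 0.69 at Day 15 (adjusted p = 0.738).

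Smpd1, the acid sphingomyelinase, had 0.302, 1.21 and 4.61 RPKM as lowest, median and highest at Day 5, 0.00336, 0.158 and 5.75 at Day 15, and 0.00186, 0.380 and 1.24 in Control. In 4 of 8 Day 5 libraries (replicates 3, 4, 6 and 8) and in 3 of 7 Day 15 libraries (replicates 2, 3 and 5) the value was above every control. The change was 0.73 at Day 5 (95% interval from -0.07 to 1.54, limma adjusted p = 0.236) and 0.45 at Day 15 (95% interval from -0.39 to 1.28, adjusted p = 0.816). After quantile normalization the Day 5 change was 0.02.

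Without the 1 added to each RPKM value, ratios within a library would not move with its scaling. Most members lie near 1 RPKM, so these ratios do move. Sum scaling took Sptlc2 over Sptlc1 at Day 5 against Control from 1.22 to 0.89. The log2 ratio of Ugt8a over Ugcg, galactosyl against glucosyl transfer to ceramide, was 1.31 ± 0.81 at Day 5 (SD, n = 8), 1.34 ± 3.20 at Day 15 (SD, n = 7) and 2.75 ± 1.45 in Control (SD, n = 10). It was above 0 in all 10 controls. Day 5 stood at -1.44 against Control with a two-sided exact permutation p = 0.0237, which did not pass over the 9 ratio tests (adjusted p = 0.0710). It passed if Day 5 replicate 9 or 1 of Control replicates 4 and 10 was left out (adjusted p between 0.0337 and 0.0444). Leaving out Day 15 replicate 3, which is not in this comparison, kept the exact permutation p at 0.0237. Only the adjusted p moved, to 0.0426, because other ratio tests changed. Day 15 stood at -1.41 against Control (exact permutation adjusted p = 0.363) and at 0.03 against Day 5 (adjusted p = 0.951).

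The ratio of Ugt8a over Galc, synthesis against breakdown of galactosylceramide, was 1.62 ± 0.64 at Day 5 (SD, n = 8), 1.35 ± 3.27 at Day 15 (SD, n = 7) and 3.08 ± 2.44 in Control (SD, n = 10). Day 5 differed from Control by -1.46 (exact permutation adjusted p = 0.258) and Day 15 from Control by -1.73 (adjusted p = 0.363). Median Galc was 0.551 RPKM at Day 15 and 0.275 in Control, and median Ugcg 0.380 and 0.602. The 1 added outweighs such values, so in many libraries both ratios lean on Ugt8a and are not separate results. Day 15 replicate 3, which held 263 RPKM of Ugt8a, decided the Day 15 values. Without it, Day 15 stood at -2.52 against Control for Ugt8a over Ugcg (exact permutation adjusted p = 0.0226). For Ugt8a over Galc, Day 15 without it stood at -2.83 against Control (exact permutation adjusted p = 0.0426) and at -1.37 against Day 5 (adjusted p = 0.0450, against -0.27 and an adjusted p = 0.937 with it). That library was picked by its high value in these same data, while Control replicate 8, at 252 RPKM of Ugt8a, was kept. The p-values without it are therefore no evidence of a change. With Day 15 replicate 6 left out instead, Ugt8a over Galc stood at 0.43 against Day 5 (exact permutation adjusted p = 0.866).

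**Figure D4:**
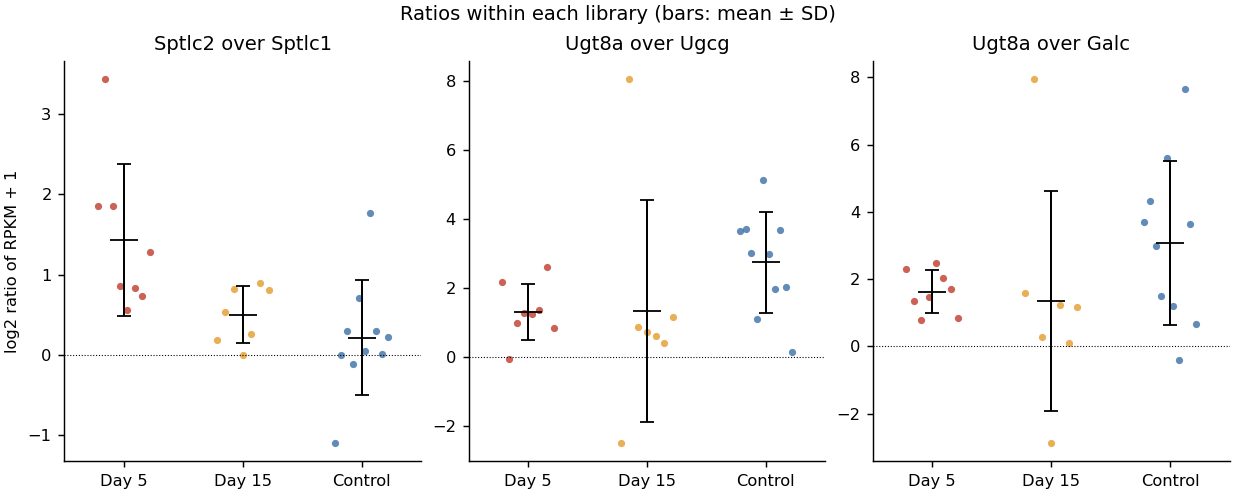
The 3 within-library log2 ratios of (RPKM + 1), 1 point per library, with Day 5, Day 15 and Control from left to right and the group mean ± SD. In the panels with Ugt8a, Day 15 replicate 3 stands apart at 8.04 over Ugcg and 7.95 over Galc.

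The wider pathway was read from 57 other sphingolipid genes in 8 roles, all in the table, 8 of them under an older symbol. The filter passed 24 of these. It can favour genes that are higher at Day 5, where more genes reached 1 RPKM, and the counts below depend on it. Gla reached 1 RPKM in 6 Day 5, 3 Day 15 and 1 Control libraries, and Glb1 in 6, 2 and 1. Without the filter, 56 of these genes were fitted and 1 was called at Day 5, with a median change of 0.43. At Day 5 against Control, 5 of the 24 were higher and 0 lower, beside 6.02% of all tested genes called higher and 0.0232% called lower. All 5 belong to the lysosomal breakdown of glycosphingolipids, of which 8 genes were tested. The 24 genes had a median log2 change of 1.19, with all 24 above 0, where all tested genes had a median of 0.61. After quantile normalization their median was 0.38 and 1 of the 24, Gla, was called.

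Psap encodes the precursor of the saposins, the activator proteins of these enzymes. It had 10.6, 38.2 and 2069 RPKM as lowest, median and highest at Day 5, 1.38, 20.2 and 112 at Day 15, and 0.639, 4.13 and 10.3 in Control. The rise was 3.75 (SE 0.80, limma adjusted p = 0.00554). Its Day 5 mean was 304 ± 715 RPKM (SD, n = 8), and 51.3 without replicate 6, which held the 2069 RPKM.

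Gla, the alpha-galactosidase, rose by 3.23 (SE 0.73, limma adjusted p = 0.00863), with medians of 7.09 RPKM at Day 5, 0.395 at Day 15 and 0.178 in Control. Hexa, a lysosomal glycosidase gene, rose by 2.40 (SE 0.54, adjusted p = 0.00863), with medians of 6.87, 1.05 and 0.393 RPKM in that order of groups. The calls of Psap, Gla and Hexa held in all 25 fits that left out 1 library.

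Glb1, the beta-galactosidase, rose by 1.89 (SE 0.54, limma adjusted p = 0.0295), a call lost if Day 5 replicate 3 or 1 of Control replicates 3, 9 and 10 was left out (adjusted p between 0.0509 and 0.0569). Its Day 5 mean of 20.8 RPKM rests on replicate 3 at 151 RPKM; the next highest Day 5 library had 3.98 and the Day 5 median was 2.16. Macrophage and microglia marker sums, given above, were higher in every Day 5 library than in any control, and their part in these 5 genes was not tested.

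In the other roles no gene was called at Day 5 by limma. The gene with the smallest p in ceramide synthesis was Lass6 (now Cers6, a ceramide synthase), with a change of 1.38 (adjusted p = 0.0559). In ganglioside synthesis it was B4galt6, a lactosylceramide synthase, with 1.24 (adjusted p = 0.0534), and in sphingomyelin breakdown Smpdl3a, a relative of acid sphingomyelinase, with 1.81 (adjusted p = 0.0663). For sphingomyelin synthesis it was the synthase Sgms1 with 1.05 (adjusted p = 0.204), for sphingosine 1-phosphate metabolism the lyase Sgpl1 with 1.21 (adjusted p = 0.151), and for the ceramidases Acer3 with 0.78 (adjusted p = 0.141). The 3 Ormdl genes, which restrain serine palmitoyltransferase, were all under the filter.

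At Day 15 against Control 0 of the 24 were called by limma and the median change was 0.43. Psap stood at 2.28 (adjusted p = 0.319). At Day 15 against Day 5 again 0 were called, the median was -0.72, and 23 of the 24 values were below 0.

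**Figure D5:**
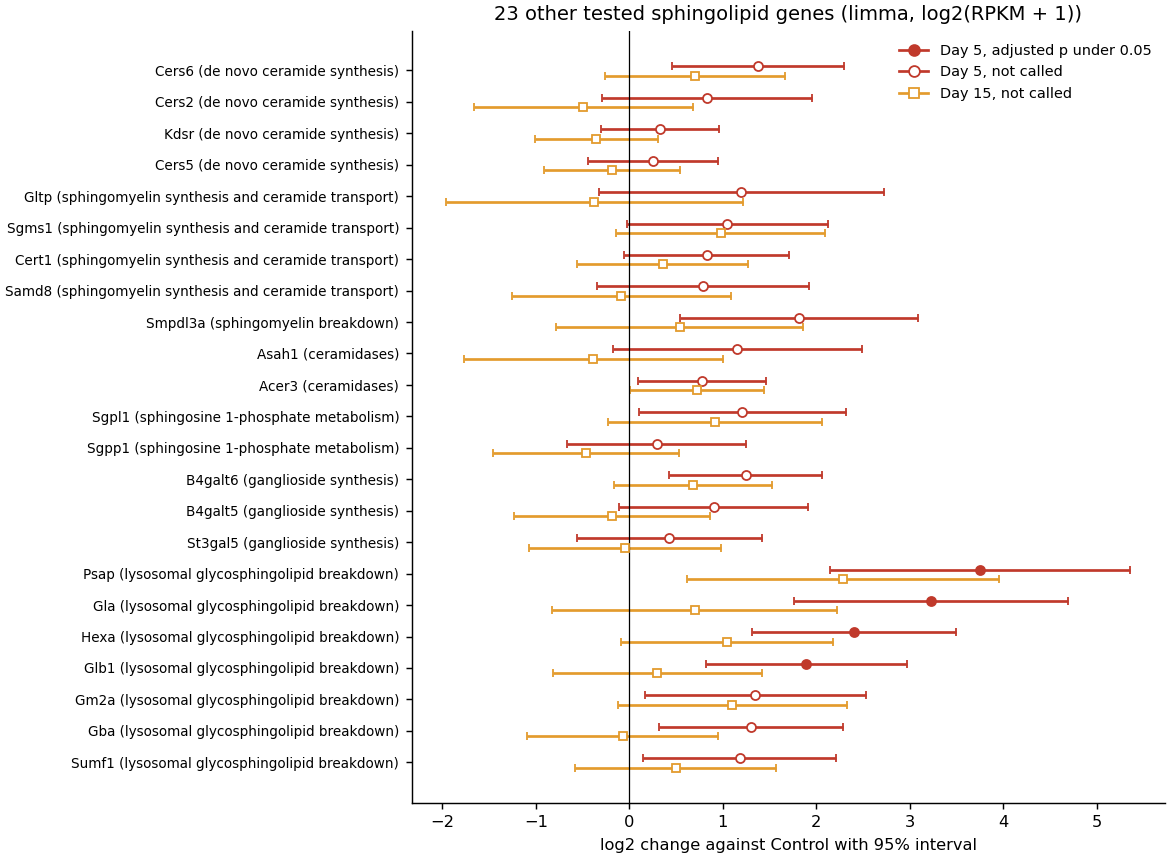
Log2 changes with 95% intervals of 23 of the 24 tested other sphingolipid genes, by role, at Day 5 against Control (circles, filled where called) and Day 15 against Control (squares). The called genes shown, at Day 5, all lie in the lysosomal group, between 1.89 and 3.75, and 0 are called at Day 15.

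The genes whose pattern was most like each tested member were found by Spearman's rho after quantile normalization, over 25 libraries and 4183 candidate genes. For Sptlc2 they were Rnf20 (rho 0.66), a ubiquitin ligase of histone H2B, and Emr1 (0.64), which encodes the macrophage surface protein F4/80. Ugt8a was nearest to Sv2a (0.71), a synaptic vesicle protein, and the membrane skeleton gene Epb4.1 (0.69). Fa2h was nearest to Osbpl1a (0.69) and Tmeff1 (0.68), and Degs1 to Enpp4 (0.71) and Set (0.67). Galc was nearest to Larp4b (0.73) and Vps39 (0.66), Smpd1 to Micall1 (0.67) and Trim35 (0.65), and Ugcg to Csnk2a1 (0.62) and Tcp1 (0.62). These are descriptions, drawn from the highest of many values in libraries that differ in group and in detected genes.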

How the data were processed

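Laser-captured cells were sequenced in 25 libraries, grouped by the labels. Amplified cDNA (Nugen Ovation) was read as paired ends of 100 bp with 3 samples in a lane, per the labels' protocols. The submitters' processing notes name CASAVA 1.8.3, STAR 2.1.4a, HTSeq and build mm9. The authors deposited RPKM values. Their scaling and strand setting were not given in the sources used, so overlapping genes are uncertain. Values did not step in whole reads; without a known depth, no counting intervals could be computed. Amplifying little RNA loses scarce transcripts at random, and a low value may reflect that.

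Here log2(RPKM + 1), which compresses changes of low genes, was fitted for all 3 groups together with limma 3.58.1 in R 4.3.3 (intensity trend, robust, two-sided), for the 4319 genes that reached 1 RPKM in 7 libraries or more. P-values were adjusted over all of these by Benjamini-Hochberg, and values under 0.05 were called. Ratios were compared by exact permutation in Python 3.11.15 with scipy 1.17.1. Both scripts were tested on simulated data. The table has 741 genes at 0 throughout and no unused column.

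The members, gene lists and tests were chosen with earlier results of these data known. Named were all members, the other sphingolipid genes called, the smallest p of each role at Day 5, and 2 nearest genes per member; 1 gene that this rule names is counted but not reported here. Alternatives were upper-quartile, sum and quantile scaling, a pseudocount of 0.1, other filters (none, or a mean of at least 5 RPKM), library weights, a replicate block, detected genes or number range as a covariate, 2 groups only, number ranges apart, and leaving out libraries. P-values measure the spread between samples, which may be technical. No mm9 coordinates are used, and promoters are given in GRCm38.p6.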

Additional observations from a re-analysis of the deposited data

Results flagged for a closer look

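Libraries were looked for that stood far from the rest of their group, in 36 sets of values (9 genes and 3 ratios in 3 groups), and 9 were found where chance alone gives about 1 in 20. For Ugt8a, Day 15 replicate 3 stood at 8.04 on the log2(RPKM + 1) scale, and the same library stood apart in the log2 ratios of Ugt8a over Galc (7.95) and of Ugt8a over Ugcg (8.04). Day 15 replicate 5 was far above the other Day 15 libraries for Degs1 (2.72) and for Gal3st1 (0.77). Day 5 replicate 3 stood at 3.44 in the log2 ratio of Sptlc2 over Sptlc1. Among the controls, replicate 1 was high for Sptlc1 (1.37), replicate 7 for Sptlc2 (1.84) and replicate 8 for Ugcg (4.31). These are single libraries, and the cause was not tested for any of them.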

How the results depend on the processing

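Depth is unknown, most members lie near 1 RPKM, and libraries cannot be tied to animals; these limit every value. Across 297 alternative values of the members, 251 kept direction and side of the threshold, 8 lost the Sptlc2 call and 38 changed sign, none of these with a call. For ratios the numbers were 52, 7 and 4 of 63. Among the members only Sptlc2 at Day 5 had a call to lose. That call was lost in 8 of its 14 alternatives, and in 11 of 25 fits that left out 1 library. The causes were not tested. Scaling moved the median Day 5 change of all genes, 0.61 as deposited, to 0.10 (upper quartile), 0.15 (equal sum without Rn45s) and -0.02 (quantile). The count of all genes called at Day 5, 261, ran from 0 (detected genes as a covariate) to 597 (library weights), and at Day 15, 4, from 0 to 38.

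The count of members called at Day 5 was 0 without a filter, with a mean of at least 5 RPKM (which left only Ugt8a), upper-quartile, sum or quantile scaling, detected genes as a covariate, numbers 1 to 6, or numbers 7 to 10. It was also 0 without 3 libraries left out together (Day 5 replicate 4, Day 15 replicates 5 and 6). Day 5 replicate 4 and Day 15 replicate 5 had the highest correlation of all library pairs (r = 0.425). Day 5 replicates 9 and 10, which were kept, were as close (0.425), and Day 15 replicate 6 was not among the most correlated libraries. Of the other sphingolipid genes, 5 were called at Day 5, against 9 with a pseudocount of 0.1, 1 without a filter, 3 with a mean of at least 5 RPKM, 1 with upper-quartile, 2 with sum and 1 with quantile scaling, 10 with library weights, 8 with number range as a covariate, and 0 with detected genes as a covariate, with numbers 1 to 6 or with 7 to 10. The median member change at Day 5 was 1.18 with a pseudocount of 0.1, -1.11 with a mean of at least 5 and -0.49 with numbers 7 to 10; at Day 15 it was -1.04 and -1.08 under the last 2.

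At Day 5, with upper-quartile, sum and quantile scaling and detected genes as a covariate, Degs1 was -0.41, -0.34, -0.46 and -0.16, Ugcg -0.16, -0.10, -0.30 and -0.19, and Galc -0.090, -0.027, -0.25 and -0.032. With numbers 7 to 10, Degs1 was -0.49 and Ugcg -0.65. At Day 15 against Control, Sptlc2 was -0.061 with detected genes as a covariate and Smpd1 -0.023 with sum scaling. In that comparison with numbers 7 to 10, Ugcg was -1.08, Galc -0.27 and Smpd1 -0.48, and Galc was -0.22 without the same 3 libraries. At Day 15 against Day 5, Ugt8a was -0.16 with a pseudocount of 0.1, -0.50 with library weights, -1.22 with numbers 7 to 10 and -0.0054 without the 2 libraries rich in Rn45s (Control replicate 5, Day 5 replicate 10). Fa2h was 0.20, 0.078, 0.43 and 0.33 with upper-quartile, sum and quantile scaling and detected genes as a covariate. Ugcg was -0.57 with a pseudocount of 0.1, -0.11 with library weights, -0.43 with numbers 7 to 10 and -0.078 without the 3 libraries, where Galc was -0.55; Galc was -0.29 with numbers 7 to 10, and Smpd1 was 0.010 with quantile scaling and 0.064 with detected genes. The Day 15 minus Day 5 ratio of Ugt8a over Galc was 0.27 with numbers 1 to 6 and 0.67 without the 3 libraries, and that of Ugt8a over Ugcg -0.79 with numbers 7 to 10 and -0.037 without the 2 rich in Rn45s. Sptlc2 over Sptlc1 at Day 5 was no longer called at 1.75 (pseudocount 0.1), 0.89 (sum scaling), 2.03 (numbers 1 to 6), 0.28 (7 to 10), 1.29 (without the 2) and 1.16 (without the 3).

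With the replicate number as a block, 9 of the other sphingolipid genes and 499 of all genes were called at Day 5, the members called stayed at 1, Ugt8a was -0.56 and Ugcg -0.39 at Day 15 against Day 5, and Sptlc2 over Sptlc1 was 1.25, no longer called. Nothing in the labels says that numbers pair samples: the correlations of same-numbered libraries ran from -0.06 to 0.08, and a library correlated best with its own number in 0 of 8, 1 of 7 and 2 of 5 pairs.

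Leaving out each library in turn, members called at Day 5 ranged from 0 to 1 and other sphingolipid genes called from 3 to 8, both staying at 0 in the other comparisons. The ratio differences ranged from -1.85 to -0.95, -2.83 to -1.03 and -1.37 to 0.43 for Ugt8a over Galc (Day 5 against Control, Day 15 against Control, Day 15 against Day 5), from -1.72 to -1.17, -2.52 to -0.77 and -1.09 to 0.67 for Ugt8a over Ugcg, and from 0.93 to 1.39, 0.14 to 0.46 and -1.05 to -0.64 for Sptlc2 over Sptlc1. Member changes that crossed 0 were Ugcg at Day 15 against Control (-0.14 to 0.73) and, at Day 15 against Day 5, Ugt8a (-0.82 to 0.39), Fa2h (-0.55 to 0.13), Ugcg (-0.47 to 0.26) and Galc (-0.12 to 0.54).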

Other observations

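Genes of the first enzyme that were too low to test are given as values. Sptlc3, an alternative catalytic subunit, did not exceed 0.206 RPKM at Day 5, 0.127 at Day 15 and 0.0225 in Control. Sptssa, a small activating subunit, had medians of 0.484 RPKM at Day 5, 0.0970 at Day 15 and 0.165 in Control, and reached 4.76 RPKM in a Day 5 library. The medians of Ormdl3, an inhibitor, were 0.338 RPKM at Day 5, 0.138 at Day 15 and 0.0690 in Control. Degs2, the relative of Degs1 that makes phytoceramide, had medians of 0.129, 0.0203 and 0.0120 RPKM in the same order of groups.

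Cers2, the ceramide synthase of very long acyl chains, which are abundant in myelin lipids, had medians of 4.22 RPKM at Day 5, 0.820 at Day 15 and 3.02 in Control. Day 15 replicate 8 held 0 of the 9 members at 1 RPKM or more, and Day 5 replicates 1 and 4 held 8.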
